A study of Mus musculus with 6 samples.

Results

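The genes described here encode small membrane proteins that interferon induces: Ifitm1, Ifitm2, Ifitm3, Ifi27, Ifi27l2a, Bst2 and Ly6e. They were chosen by symbol, and all 7 were found among the 32285 genes of the count files. Their RNA was measured by droplet single-cell RNA sequencing in hematopoietic stem and progenitor cells (HSPCs) sorted from mouse bone marrow as lineage-negative, cKit+ and Sca1+ cells (LSK cells). Recipients were C57BL/6J (CD45.1) mice aged 8 to 12 weeks, without conditioning, that received either PBS or 1000000 cells of C1498, a mouse acute myeloid leukemia (AML) line that carries CD45.2, by vein. Marrow was taken on day 21. There were 3 libraries from PBS mice and 3 from AML mice, and the table that assigns cells to classes holds cells of the 3 PBS libraries and of AML replicates 1 and 3. The sources read here do not state outright whether each library came from 1 mouse or from several, so that p-values below measure only the spread between these libraries, which may be technical.

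Interferons bind receptors that activate Janus kinases, and the transcription factor complexes formed in response bind the interferon-stimulated response element (ISRE) in front of target genes. The Ifitm proteins sit in the plasma and endosomal membranes and hinder the fusion of enveloped viruses with the cell, and stem cells are known to express some of them without infection. Bst2, or tetherin, holds budding virus particles at the cell surface. Ly6e is anchored to the outer membrane by a glycolipid and belongs to the family of Ly6a, which encodes the sorting antigen Sca1. Ifi27 and Ifi27l2a encode short hydrophobic proteins of intracellular membranes.

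In GENCODE's annotation of GRCm38, the Ifitm genes are neighbours on chromosome 7, with Ifitm2 at chr7:140954837-140955987 on the minus strand, Ifitm1 at chr7:140967221-140969825 on the plus strand and Ifitm3 at chr7:141009586-141010770 on the minus strand. Ifi27 (chr12:103434211-103440239, plus strand) and Ifi27l2a (chr12:103442167-103443680, minus strand) lie 1927 bases apart. Bst2 is at chr8:71534255-71537456 on the minus strand and Ly6e at chr15:74955051-74959905 on the plus strand. The Ifitm transcripts resemble each other. Of the 606 different 50-base words in the annotated Ifitm2 transcripts, 294 (48.5%) also occur in transcripts of other genes, among them Ifitm3 and several pseudogenes, and the Gm45717 transcript overlaps Ifitm2 on the same strand. The shared part was 10.0% of the words of Ifitm3 and 5.02% of those of Ifitm1, so that reads may be split or lost between these genes and Ifitm2 levels are the least certain. Ifi27, Bst2 and Ly6e share no such word with another gene.

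RefSeq promoters on GRCm38.p6, from 250 bases before to 50 after the start, were at hand for Ifitm1, Ifitm2, Ifitm3 and Bst2. They were searched on both strands for the ISRE core, GAAA and GAAA with any 2 bases between them, because interferon-responsive promoters commonly carry it. The pattern was found in 3.44% of all 32851 promoters of the same length, and more than 1 match in 0.225%. It was found once in the Ifitm2 promoter, at bases -46 to -37 from the start, and not in the Ifitm1 promoter. The Ifitm3 promoter held 2 matches within bases 3 to 29 after the start, and the Bst2 promoter 2 overlapping matches between bases -130 and -115. The pattern TTCNNNGAA, read by the interferon gamma pathway and found in 8.30% of all promoters, had 1 match each in the Ifitm3 and Bst2 promoters, which in both overlapped an ISRE match. These are matches of letters only. The sequences are shown 5′ to 3′ on the gene's own strand with the ISRE core in capitals. The first is the part of the Ifitm1 window ahead of the exon that begins in it (chr7:140967826-140968027), without a match, which lies within the GENCODE gene in the first intron of a longer transcript, and the others are the sites in Ifitm2 (chr7:140955988-140956017), Ifitm3 (chr7:141010714-141010743, in the transcribed leader) and the whole upstream part of Bst2 (chr8:71537473-71537722).
Ifitm1: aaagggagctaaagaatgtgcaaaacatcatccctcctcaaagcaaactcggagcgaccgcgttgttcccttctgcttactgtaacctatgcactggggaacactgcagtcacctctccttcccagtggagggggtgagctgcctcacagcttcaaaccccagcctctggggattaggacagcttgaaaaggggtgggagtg
Ifitm2: ccaccaacagGAAAAGGAAAttgctagaga
Ifitm3: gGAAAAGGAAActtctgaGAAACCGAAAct
Bst2: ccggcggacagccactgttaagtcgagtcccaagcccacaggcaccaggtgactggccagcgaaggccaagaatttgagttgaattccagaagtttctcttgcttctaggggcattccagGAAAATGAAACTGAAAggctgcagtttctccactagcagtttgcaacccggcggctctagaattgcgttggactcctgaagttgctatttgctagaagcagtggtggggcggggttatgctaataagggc

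The cell table holds 16822 cells, 693 to 6838 per library, with 1945659 to 32123508 unique molecular identifiers (UMIs, each standing for 1 captured RNA molecule) per library and a median of 2393 to 9586 UMIs per cell. AML replicate 1 was the smallest library on both counts of cells and UMIs, and 14.7% of its cells were called G1, against 49.0% in AML replicate 3 and 55.9% to 58.2% in the PBS libraries. AML replicate 2 has no cells in the table. The libraries shared 0 to 12 cell barcodes in pairs. Of the sorting markers, Kit stood at 79.7 to 104 counts per 1000000 UMIs (CPM), and the T cell gene Cd3e and the granulocyte gene Ly6g were at 0.192 CPM or less in every library. Ly6a ranged from 101 to 199 CPM in the PBS libraries and from 116 to 203 CPM in the AML libraries. Summed marker levels of several cell types moved with the groups. The 10 neutrophil markers summed to 116 to 227 CPM in PBS and 349 to 551 CPM in AML, the 10 monocyte and macrophage markers to 154 to 183 and 292 to 307 CPM, the 8 plasmacytoid dendritic cell markers, of which Klk1 was at 0 in all 5 libraries, to 143 to 171 and 214 to 219 CPM, and the 10 erythroid markers to 819 to 1254 and 299.6 to 628 CPM. A sum follows its most abundant genes, and 3 of 7 neutrophil, 8 of 9 monocyte and macrophage, 2 of 5 plasmacytoid dendritic cell and 0 of 10 erythroid markers tested had a positive difference over all LSK cells, of which edgeR called 3, all monocyte and macrophage markers. Their part in the results below was not tested.

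The first question was how much of each gene stem cells carry in mice without leukemia. The authors assigned cells to an HSC class and to 3 classes of multipotent progenitors (the MPP-2, the MPP-3 and the MPP-4 class) by module scores of signatures. The sources used here do not list the signature genes, so that a member could be among them. Markers listed for a check were averaged over the 5 libraries, PBS and AML together, and not over PBS alone. All 9 HSC markers were highest in the HSC class, as were all 8 MPP-3 markers in theirs, whereas 3 of 8 MPP-2 markers and 5 of 7 MPP-4 markers were highest in their own class. The 7 members split in HSC-class cells. In CPM, Ifitm1 and Ifitm3 were at their highest there, Ifi27l2a and Ly6e at their lowest, and Bst2 at or near its lowest, while Ifitm2 differed little between the HSC and the MPP-2 class. Levels are given as CPM of all UMIs in the class, which counts molecules at the 3' end and does not depend on transcript length, and levels of different genes are not ranked.

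In HSC-class cells of PBS replicates 1, 2 and 3, Ifitm1 was at 1041, 1375 and 1236 CPM (mean 1217 ± 168 SD, n = 3). Ifitm3 was at 1576, 1777 and 1638 CPM (1664 ± 103) and Ifitm2 at 805, 892 and 701 CPM (799 ± 95.5). These 3 genes were detected in most stem cells of every PBS library. When each cell was thinned to 2000 UMIs, 79.8% to 87.7% of HSC-class cells held an Ifitm1 UMI, 73.1% to 81.0% an Ifitm2 UMI and 91.7% to 94.0% an Ifitm3 UMI, against 90.0% to 99.6%, 86.2% to 98.7% and 96.5% to 100% without thinning, at median depths of 3160 to 7408 UMIs. Cluster 6, where the Ifitm genes were lowest, gives a background for these shares: in the PBS libraries with at least 20 cells there, 6.17% to 12.1% of thinned cells held Ifitm1, 4.23% to 10.6% Ifitm2 and 9.05% to 15.3% Ifitm3 (15% to 24.6%, 12.5% to 28.1% and 28.1% to 30% without thinning, at median depths of 7943 and 10823.5 UMIs).

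Ifi27 was at 138, 151 and 129 CPM in the same cells (140 ± 10.9). Bst2 was at 217, 193 and 189 CPM (200 ± 14.8). Both varied little between the PBS libraries. Ly6e was at 313, 487 and 329 CPM (376 ± 96.2), with PBS replicate 2 above the other two, as it was for Ly6e in every class. Ifi27l2a was at 21.1, 45.6 and 38.0 CPM (34.9 ± 12.5), from 105, 80 and 135 UMIs. Of the thinned HSC-class cells, 3.71% to 6.87% held an Ifi27l2a UMI (6.57% to 17.5% without thinning). In cluster 7, where Ifi27l2a was lowest, the share was 0.784% and 3.73% of thinned cells (5.88% and 9.52% without thinning, median depths 7189 and 6625 UMIs) in the 2 PBS libraries with at least 20 cells, so that part of the share in stem cells is within the range of background.

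Within the HSC class, levels of Ifitm1 and Ifitm3 went with the cell cycle phase in the authors' table. Ifitm1 was at 1123, 1473 and 1333 CPM in the G1 cells of PBS replicates 1, 2 and 3 and at 737, 911 and 898 CPM in their S cells, and Ifitm3 at 1647, 1859 and 1713 CPM in G1 and at 1345, 1231 and 1314 CPM in S. G1 and S did not overlap for either gene, nor for Ifi27 (144 ± 11.5 CPM in G1 and 122 ± 8.48 CPM in S). Only PBS replicate 1 held at least 20 G2M cells among the PBS libraries (35 cells). There Ifitm1 was at 890 CPM, Ifitm3 at 1293 CPM and Ifi27 at 150 CPM, the last above its G1 value of 143 CPM in that library. Ifitm2 (800 ± 101 and 784 ± 95.1 CPM), Bst2 (199 ± 12.6 and 201 ± 26.1 CPM) and Ly6e (381 ± 102 and 338 ± 73.3 CPM) differed between G1 and S by less than the spread of the libraries, although Ly6e was higher in G1 within each of the 3, and Ifi27l2a overlapped between the phases (19.3 to 40.7 and 18.8 to 23.2 CPM). Phase was called from the same transcriptomes, and these values carry no test.

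The second question was how the members differ between the classes without leukemia. Sums per class and PBS library were compared with edgeR's quasi-likelihood test with the library as a block, and adjusted p-values are by Benjamini-Hochberg over the 11793 genes tested. Ifitm1 and Ifitm3 were lower in each progenitor class than in HSC, and Ifi27l2a was higher in each. In MPP-2, 2 members fell and 4 rose, where 25.5% of all genes fell and 26.1% rose. In MPP-3 it was 2 and 4 members, with a background of 15.7% and 20.2%. The risers in MPP-2 and MPP-3 include Ifi27, whose CPM was not higher there in most libraries. It was at 124, 188 and 127 CPM in MPP-2 of PBS replicates 1, 2 and 3 and at 128, 116 and 124 CPM in MPP-3, above the HSC class of the same library in 1 of 3 and 0 of 3 libraries, against fitted differences of 0.24 and 0.25 (edgeR adjusted p = 0.0088 and 0.029). In MPP-4 it was 3 and 3, with a background of 13.4% and 14.7%. Without the block, 5 of the 18 calls remained, those of Ifitm1 in the 3 classes, Ifi27l2a in MPP-4 and Bst2 in MPP-3.

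Ifitm1 was at 437, 557 and 552 CPM in the MPP-2 cells of PBS replicates 1, 2 and 3, at 546, 451 and 595 CPM in MPP-3 and at 546, 752 and 644 CPM in MPP-4. Each of these was below every HSC value. The fitted difference from HSC was -1.01 ± 0.07 in MPP-2 (log2 ± SE, edgeR adjusted p = 6.7e-12), -0.76 ± 0.07 (8.0e-09) in the MPP-3 class and -0.85 ± 0.07 (3.8e-10) in MPP-4. Ifitm3 was at 974.5, 1003 and 1025 CPM in MPP-2, at 1074, 528 and 955 CPM in MPP-3 and at 1104, 1214 and 1169 CPM in MPP-4. Its differences from HSC were -0.51 ± 0.09, -0.55 ± 0.10 and -0.46 ± 0.09 (edgeR adjusted p = 6.0e-05, 7.0e-05 and 0.00045). Ifitm2 fell by 0.27 on the log2 scale in MPP-4 (SE 0.06, edgeR adjusted p = 0.0015), and its differences in MPP-2 (0.10) and MPP-3 (-0.02) did not pass.

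Ifi27l2a ran the opposite way. It was at 39.1, 75.1 and 68.5 CPM in MPP-2, at 40.8, 64.7 and 77.2 CPM in MPP-3 and at 73.0, 123 and 135 CPM in MPP-4, and in each library HSC was the lowest class and MPP-4 the highest. The folds over HSC in that order of classes were 2.09, 2.38 and 3.42 (log2 1.06 ± 0.09, 1.25 ± 0.11 and 1.77 ± 0.09, edgeR adjusted p = 1.3e-09, 7.7e-09 and 1.6e-13). Its chromosomal neighbour Ifi27 also peaked in MPP-4, at 178, 249.4 and 175 CPM (log2 0.54 ± 0.07, edgeR adjusted p = 2.4e-06).

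Bst2, the surface tether of virus particles, rose by 0.34 to 0.57 on the log2 scale in the 3 progenitor classes (SE 0.06 to 0.07, edgeR adjusted p from 5.0e-07 to 6.3e-05). Its CPM differed by less, at 223, 201 and 222 CPM in MPP-2 and at 255, 189 and 234 CPM in MPP-3, where PBS replicate 2 was below its HSC class, and in CPM it was highest in MPP-4, at 264, 249.4 and 248 CPM. Ly6e was highest in MPP-3, at 448, 897 and 450 CPM, which was 2.01-fold over HSC (log2 1.00 ± 0.10, edgeR adjusted p = 4.3e-08). It rose by 0.41 in MPP-2 (adjusted p = 0.0010), and its difference in MPP-4 (0.25, adjusted p = 0.060) did not pass.

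The MPP-3 class also held 172 of the 177 cells of cluster 6, where most members were at their lowest, and 12 of the 41 MPP-3 cells of PBS replicate 2 were of this cluster. Without these cells, a choice made after seeing the data, Ifitm1 was at 611, 749.9 and 706 CPM in the MPP-3 cells of PBS replicates 1, 2 and 3 and Ifitm3 at 1209, 864 and 1134 CPM, still below every HSC value. Ifi27l2a was at 39.1, 36.9 and 75.4 CPM, which in PBS replicate 2 rested on 13 UMIs and was below the HSC class. The differences from HSC were -0.66 for Ifitm1, -0.44 for Ifitm3, 0.97 for Ifi27l2a, 0.54 for Bst2 and 0.74 for Ly6e, and all of these still passed in edgeR (adjusted p at most 1.1e-05). Ifitm2 turned to 0.072 (adjusted p = 0.32), and Ly6e passed in MPP-4 (0.25, 0.0031).

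Scaling bears on the small differences. The fit scales libraries by the trimmed mean of M values (TMM), and scaling by library size instead moved the median of all genes by -0.23 in MPP-2 and -0.33 in MPP-3 relative to HSC. Under it, Ifitm2 in MPP-2 (-0.13) and Ifi27 in MPP-3 (-0.11) turned negative, Ifitm2 passed in MPP-3 (-0.41, edgeR adjusted p = 0.0011), and the rises of Ifi27, Bst2 and Ly6e in MPP-2 did not pass (edgeR adjusted p = 0.90, 0.24 and 0.075), whereas those of Ifi27l2a and the falls of Ifitm1 and Ifitm3 passed under both. Among G1 cells alone, none of the 7 members passed in MPP-2, where Ifitm1 differed from HSC by -0.42 (edgeR adjusted p = 0.060) and Ifi27l2a by 0.52 (0.26).

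**Figure D1:**
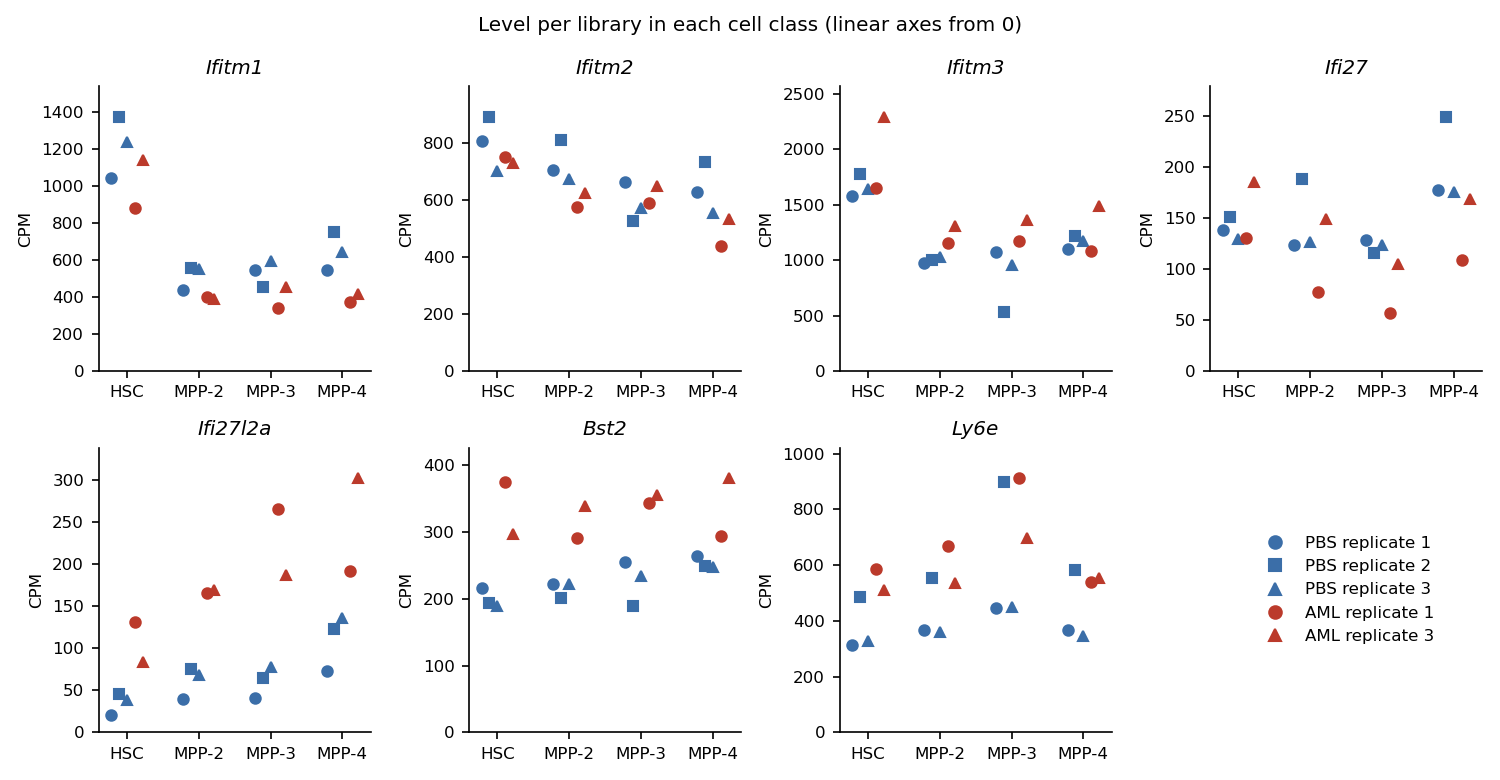
Level in CPM (linear axes from 0) of each member in the HSC class and the 3 MPP classes, 1 point per library, blue for PBS and red for AML. Ifitm1 and Ifitm3 are highest in HSC, Ifi27l2a is lowest there, and both AML points of Ifi27l2a and Bst2 lie above all PBS points in every class.

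The clusters of the cell table divide the cells in another way, and levels there are a description without a test between clusters. In PBS libraries with at least 20 cells of a cluster, Ifitm1 was lowest in cluster 6 (46.3 to 88.9 CPM) and next in cluster 7 (161 to 177 CPM), against 793 to 926 CPM in cluster 5 and 716 to 1015 CPM in cluster 0, which held 2334 HSC-class cells of the 5 libraries, more than any other cluster. Ifitm2 and Ifitm3 were also lowest in cluster 6, at 41.9 to 75.4 and 70.5 to 122 CPM. Ifi27 (29 to 57.3 CPM) and Bst2 (87.0 to 106 CPM) were lowest there as well, whereas Ly6e (450 to 472 CPM) was within the range of cluster 2 (383 to 660 CPM). Ifi27l2a reached 111 to 198 CPM in cluster 2 and 108 to 221 CPM in cluster 5, and 6.87 to 22.8 CPM in cluster 7. Bst2 was 292 to 328 CPM in cluster 2 and 220 to 377 CPM in cluster 4, and Ly6e 559 to 835 CPM in cluster 4 and 688 to 705 CPM in cluster 8. Within the HSC class, Ifitm1 was 1096 to 1490 CPM in cluster 0 and 935 to 1105 CPM in cluster 1, ranges that overlap although cluster 0 was higher in each of the 3 libraries, and Ifi27 110 to 129 CPM and 178 to 209 CPM, which do not.

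**Figure D2:**
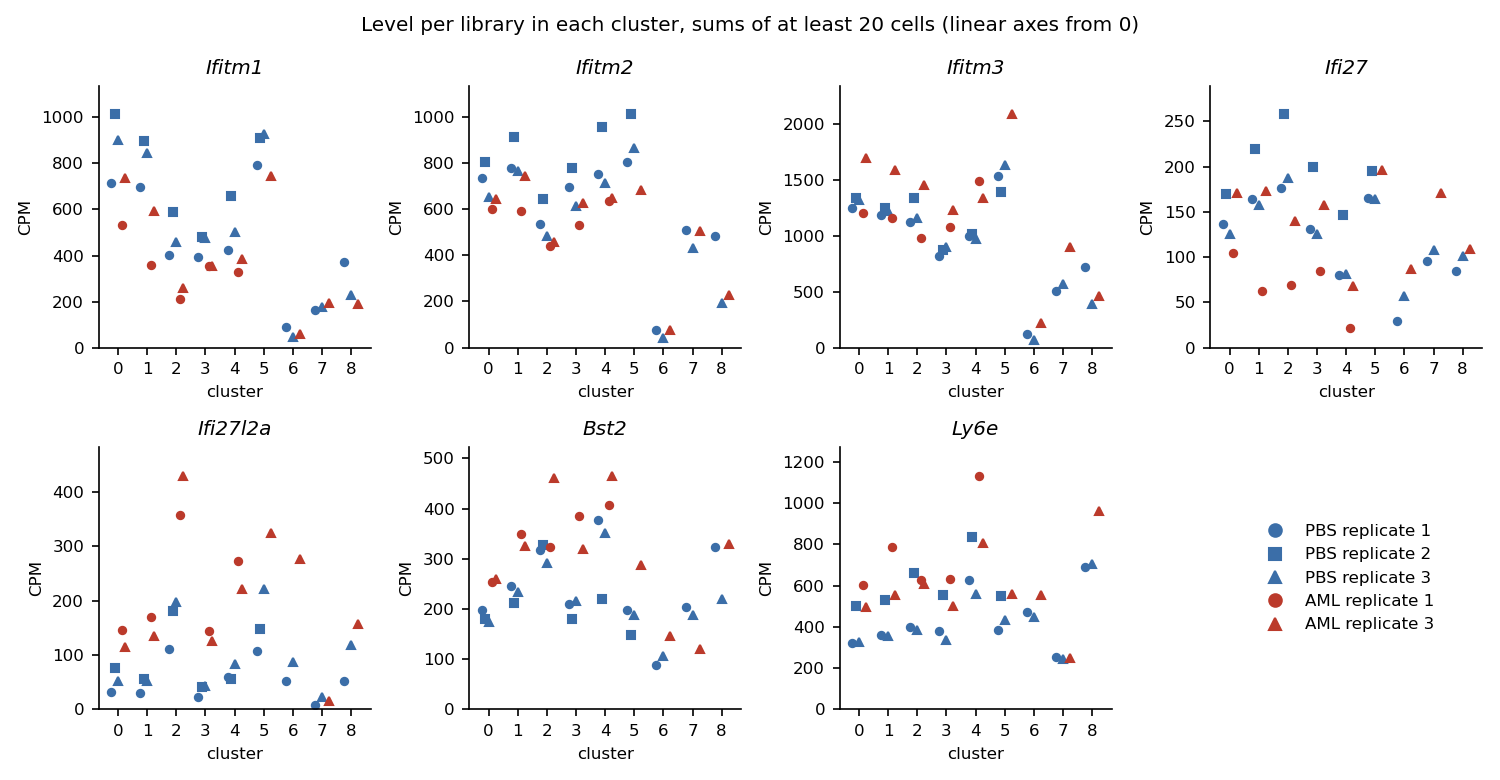
Level in CPM (linear axes from 0) of each member in clusters 0 to 8, 1 point per library with at least 20 cells, blue for PBS and red for AML. The Ifitm genes are lowest in cluster 6, and Ifi27l2a is lowest in cluster 7, also in AML replicate 3.

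The third question was what differs in the marrow of mice with leukemia. Over all LSK cells, 3 PBS libraries were compared with 2 AML libraries. No member passed edgeR's quasi-likelihood test at an adjusted p of 0.05 over 14364 genes. That test called 0.153% of the genes higher and 0.00696% lower in AML, and at an unadjusted p under 0.05, where 10.5% of all genes stood, there were Ifitm1, Ifi27l2a and Bst2. DESeq2 called 1 member, Ifi27l2a. In 3 members every AML library lay above every PBS library (16% of all genes did) and in 2 below (13.7% did). The members thus did not move as a block, and the following gives them by direction.

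Ifi27l2a was at 48.7, 87.6 and 84.9 CPM in PBS replicates 1, 2 and 3 and at 200.4 and 206.6 CPM in AML replicates 1 and 3. The AML libraries were above all PBS libraries and close to each other. The fitted difference was 1.42 ± 0.29 (log2 ± SE, 2.68-fold, edgeR adjusted p = 0.079, unadjusted p = 0.00022), higher than that of 98.8% of the genes tested. It was 1.36 (adjusted p = 0.18) in sums with equal shares of the 4 classes and 1.25 (0.12) in G1 cells alone. Without PBS replicate 1, the lowest library, it was 1.18 (0.26). It did pass under DESeq2 (1.42, adjusted p = 0.0012), with no gene filter, with a block for the replicate number and under a separate barcode filter on 6 libraries. Without AML replicate 3 it was 1.42, where the lone AML library is assumed to vary like the PBS libraries.

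Bst2 was at 241, 217 and 226 CPM in PBS and at 311 and 353 CPM in AML, with no overlap, and its difference was 0.52 ± 0.24 (edgeR adjusted p = 0.47). Ly6e was at 369, 573 and 363 CPM in PBS and at 720.1 and 584 CPM in AML. Here PBS replicate 2 nearly reached AML replicate 3, and the difference was 0.56 ± 0.29 (edgeR adjusted p = 0.52). Within the 4 classes it was 0.15 to 0.43. The MPP-3 class, in which Ly6e is highest, made up 4.39% to 11.6% of the cells in the PBS libraries. In AML replicates 1 and 3 it made up 32.9% and 22.3%, and the part of this share was not tested. Barcodes outside the cell table give a level to set beside those of the cells. They held Ifi27l2a at 38.1, 54.7 and 56.7 CPM in PBS replicates 1, 2 and 3 and at 197 and 138 CPM in AML replicates 1 and 3, Bst2 at 247, 245 and 229 CPM and at 234 and 332 CPM, and Ly6e at 372, 539 and 361 CPM and at 748 and 549 CPM. For Ly6e the barcodes outside stood near the cells in every library, and for Ifi27l2a they did so in AML replicate 1 and were below the cells in the other 4 libraries. Their median depth was 944 UMIs in AML replicate 1 and 3194 to 8396.5 UMIs in the others.

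Ifitm1 was at 583, 763 and 692 CPM in PBS and at 390.6 and 479 CPM in AML, both below the PBS range. Its difference was -0.68 ± 0.28 (edgeR adjusted p = 0.43, unadjusted p = 0.031), and -0.51 with equal shares of the classes. In the barcodes of AML replicate 2 with at least 1000 genes and at most 10% mitochondrial UMIs, Ifitm1 was at 618 CPM, within the PBS range under that filter (605 to 777 CPM). The HSC class, in which Ifitm1 is highest, made up 20.5% to 23.9% of the cells in the PBS libraries and 3.32% and 13.7% in AML replicates 1 and 3. Over all LSK cells, the 9 HSC markers summed to 630 to 684 CPM in PBS and 459 to 492 CPM in AML. The 8 MPP-2 markers summed to 313 to 445 and 197 to 276 CPM, and the 8 MPP-3 markers to 791 to 1356 and 1855 to 1858 CPM. The sums of MPP-4 markers overlapped. The part of the class shares in these differences was not tested. Ifitm2 was at 688, 778 and 629 CPM in PBS and at 561 and 611 CPM in AML (-0.28 ± 0.27, edgeR adjusted p = 0.71). Ifitm3 was at 1127, 1187 and 1156 CPM in PBS and at 1159.5 and 1461 CPM in AML. AML replicate 1 fell among the PBS libraries and AML replicate 3 above them, and the difference was 0.15 ± 0.28 (edgeR adjusted p = 0.87). Ifi27 was at 146, 201 and 141 CPM in PBS and at 78.1 and 146 CPM in AML, so that the AML libraries differed from each other more than the groups did (-0.55 ± 0.29, edgeR adjusted p = 0.52, and -0.19 without AML replicate 1).

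**Figure D3:**
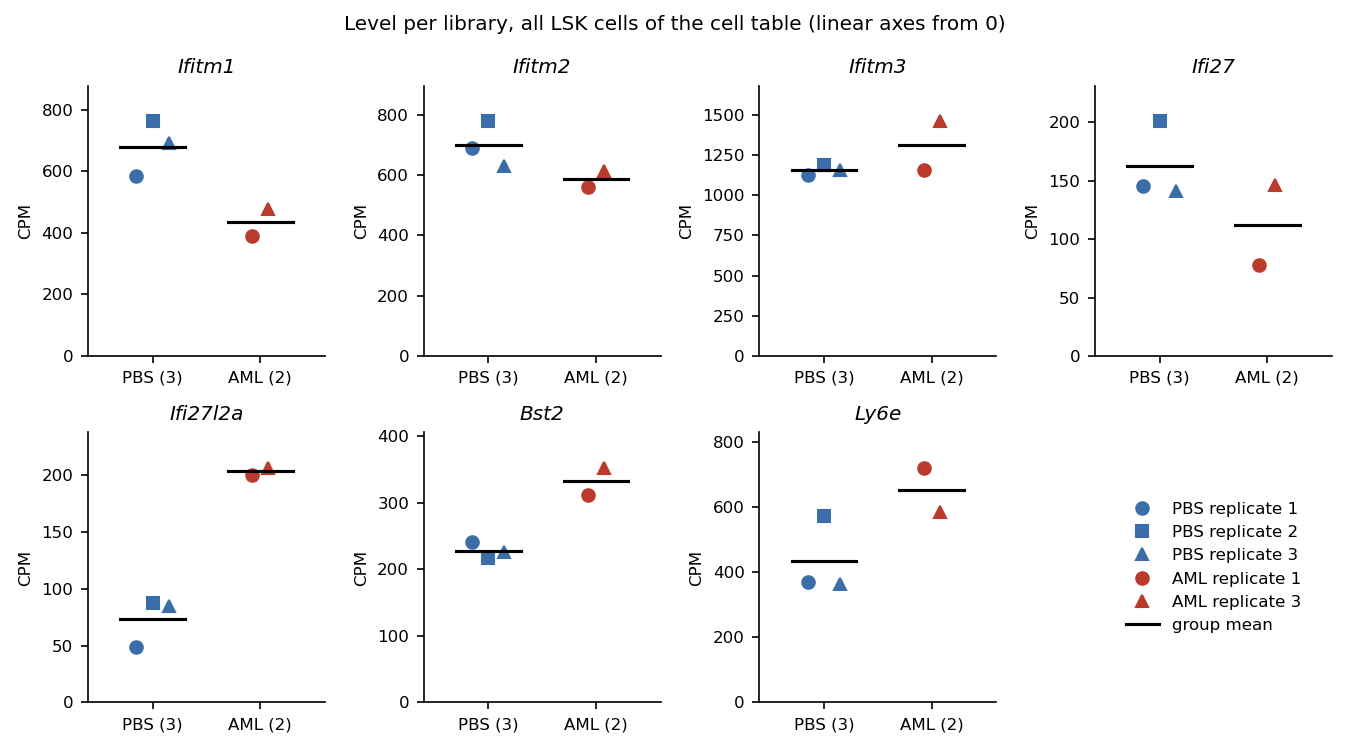
Level in CPM (linear axes from 0) of each member over all LSK cells, 1 point per library, with the group mean as a line (3 PBS and 2 AML libraries). Ifi27l2a, Bst2 and Ly6e are higher and Ifitm1 and Ifitm2 lower in both AML libraries than in all PBS libraries, while Ifitm3 and Ifi27 overlap.

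Within the HSC class, 1 of the 7 members passed, Ifi27l2a, where 0.131% of 10668 genes were called higher and 0.0469% lower. It was also the only member with an unadjusted p under 0.05, as 4.16% of all genes had. Its levels were 21.1, 45.6 and 38.0 CPM in PBS and 131 and 83.3 CPM in AML, a fitted difference of 1.22 ± 0.27 (2.32-fold, edgeR adjusted p = 0.0083). AML replicate 1 contributed 23 cells with 8 UMIs of Ifi27l2a. Without that library the difference was 1.16 (edgeR adjusted p = 0.65), without AML replicate 3 it was 1.52 (0.61), without PBS replicate 1 it was 0.89 (0.86), and DESeq2 gave 1.24 (1.00). The call was thus lost without any of these 3 libraries and under DESeq2, and also with a block for the replicate number. The direction was kept in all of these. Bst2 was at 217, 193 and 189 CPM in PBS and at 375 and 297 CPM in AML stem cells (0.47 ± 0.28, edgeR adjusted p = 0.99), and Ly6e at 313, 487 and 329 CPM and at 587 and 512 CPM (0.29 ± 0.29, 0.99). Both AML libraries were above all PBS libraries for these 3 members, as for 19.5% of all genes, and no member had both below, as 7.19% had. Other markers moved with the groups in this class: 4 of 6 erythroid markers tested fell, among them Hbb-bs (515 ± 531 CPM in PBS, mean 5.12 CPM in AML), and of 3 monocyte and macrophage markers tested 1 rose, Ms4a6c (30.6 ± 7.33 and 117 CPM), while Lyz2 (134 ± 56.7 and 72.8 CPM) and Cd68 (5.61 and 2.35 CPM) did not pass. Their part in the result was not tested. The Ifitm genes did not separate in stem cells. Ifitm1 was at 881 and 1143 CPM in AML (-0.47 ± 0.32), Ifitm2 at 751 and 727 CPM (-0.35 ± 0.31) and Ifitm3 at 1648 and 2295 CPM (0.03 ± 0.33), each with an AML value inside the PBS range, and Ifi27 at 131 and 185 CPM (0.13 ± 0.28), and edgeR gave each of these 4 an adjusted p of 0.99.

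No member passed edgeR's test in the 3 MPP classes. That test called 0.0399% of all genes higher and 0% lower in MPP-2, 0.0194% and 0.0291% in MPP-3, and 0.0325% and 0% in MPP-4. At an unadjusted p under 0.05 there were 1 member in MPP-2 (Ifi27l2a, background 7.56%), 2 in MPP-3 (also Ifi27, 7.39%) and 3 in MPP-4 (also Ifitm1 and Ifi27, 5.93%). Every AML library was above every PBS library for 3 members each in MPP-2 and MPP-3 and for 2 in MPP-4, where this held for 16.1%, 16.8% and 17.3% of all genes. Ifi27l2a and Bst2 were among them in each class. Ifi27l2a was at 166 and 169 CPM in AML MPP-2, at 265 and 187 CPM in the MPP-3 class and at 191 and 302 CPM in MPP-4, with fitted differences of 1.39 ± 0.30, 1.68 ± 0.35 and 1.09 ± 0.28 (edgeR adjusted p = 0.10, 0.089 and 0.22). DESeq2 called it in MPP-2 and MPP-3 (adjusted p = 0.019 and 0.032) and not in MPP-4 (0.81). Markers of other cell types moved in these classes too, in genes named after their values were seen. In MPP-2, edgeR called 1 of 2 neutrophil markers tested higher (Elane, 5.37 ± 2.88 CPM in PBS and a mean of 49.5 CPM in AML) and none of 7 monocyte and macrophage markers, whose median was 1.56 against -0.02 for all genes. In MPP-3 it called 1 of 8 monocyte and macrophage markers higher (F13a1, 15.8 ± 8.24 and 87.2 CPM), 1 of 3 neutrophil markers lower (S100a8, 11.9 ± 11.03 and 0.132 CPM) and 1 of 6 erythroid markers lower (Car1, 22.0 ± 23.5 and 0.331 CPM). In MPP-4 it called none of these lists' markers. Their part was not tested. Without the cells of cluster 6, an alternative chosen after seeing the data, Ifi27l2a passed in MPP-3 (2.10, edgeR adjusted p = 0.0100), with AML at 267 and 179 CPM, and Ifitm1, which overlaps with these cells included, was below all PBS libraries (351 and 487 CPM against 611 to 749.9 CPM, -0.67, edgeR adjusted p = 0.67). Bst2 was at 292 and 339 CPM, 344 and 355 CPM, and 294 and 381 CPM in the same classes. The third member was Ifitm3, at 1152 and 1311 CPM in AML MPP-2 and at 1168 and 1361 CPM in MPP-3. Below all PBS libraries lay Ifitm1 and Ifitm2 in MPP-2 (10.2% of all genes), Ifi27 in MPP-3 (5.29%) and Ifitm1, Ifitm2 and Ifi27 in MPP-4 (8.62%). The largest of these, Ifitm1 in MPP-4 (374 and 415 CPM against 546 to 752 CPM), had a difference of -0.82 ± 0.28 and an edgeR adjusted p of 0.60.

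An interaction test in edgeR asked whether the AML effect differed between the classes, over 12734 genes, of which 0.872% passed. None of the 7 members did. The lowest value belonged to Ifi27 (F = 6.85, unadjusted p = 0.00090, adjusted p = 0.069), whose fitted differences ran from 0.13 ± 0.28 in HSC to -0.73 ± 0.32 in MPP-3. It passed in edgeR without PBS replicate 2 (adjusted p = 0.00660), and Ifi27l2a did without AML replicate 3 (0.017). Unadjusted p-values under 0.05, which 10.9% of all genes had, were also given to Ifitm1 (0.047) and Ifitm2 (0.043), and limma-voom called no member.

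Within clusters 0 to 4, the only clusters with at least 20 cells in every library, Ifi27l2a passed in cluster 1 (1.73 ± 0.32, edgeR adjusted p = 0.029), cluster 3 (1.80 ± 0.29, 0.00027) and cluster 4 (1.79 ± 0.33, 0.0012), where 0.146%, 0.137% and 0.232% of all genes were called higher. In clusters 0 and 2, 0.0407% and 0.173% were. In cluster 4 it was at 59.8, 55.7 and 83.7 CPM in PBS and at 274 and 221 CPM in AML. In cluster 3 it was at 35.5 ± 11.3 CPM in PBS and 135 ± 13.7 CPM in AML, and in cluster 1 at 45.9 ± 14.2 and 151 ± 24.9 CPM. Clusters 0 and 2 gave 1.21 ± 0.31 (edgeR adjusted p = 0.36) and 1.18 ± 0.29 (0.077). Both AML libraries were above all PBS libraries in each of the 5 clusters, which hold largely the same cells as the classes and are no separate evidence. Markers of other cell types moved in the same clusters, in genes named after their values were seen. In cluster 1, edgeR called higher 3 of 7 monocyte and macrophage markers tested (Ms4a6c, F13a1 and Csf1r, list median 2.08 against -0.03 for all genes), 1 of 2 neutrophil markers (Elane) and 1 of 4 plasmacytoid dendritic cell markers (Cox6a2). In cluster 3 it called higher 1 of 3 monocyte and macrophage markers (Ms4a6c, list median -0.34), and in cluster 4 it called 1 of 8 of them higher (F13a1, list median 0.48) and 1 of 2 erythroid markers lower (Car2). Markers of the classes moved in these clusters as well. In cluster 1, 2 of 6 MPP-3 markers tested were called higher, and both AML libraries were above all PBS libraries in all 6. They were below in 5 of 7 HSC and 3 of 5 MPP-2 markers. In cluster 3 no class marker was called, and both AML libraries were below in 3 of 6 HSC and 3 of 5 MPP-2 markers and above in 2 of 6 MPP-3 and 3 of 7 MPP-4 markers. In cluster 4, 1 of 5 MPP-2 markers tested was called higher (Pf4) and 2 lower (Apoe and Gata2), 1 of 6 MPP-4 markers was called lower (Dntt), and 3 of 4 HSC markers were below all PBS libraries in both AML libraries. Their part in these calls was not tested. The call in cluster 4 held without each library in turn (edgeR adjusted p at most 0.027). That in cluster 3 was lost without AML replicate 1 (0.13) or 3 (0.20), and that in cluster 1 without AML replicate 1 (0.055) or any PBS library (0.14 to 0.17). The other 6 members passed in none of these clusters, where 0%, 0.00859%, 0.026%, 0.0196% and 0.29% of all genes were called lower in clusters 0 to 4. At an unadjusted p under 0.05 there were 1, 3, 3, 2 and 2 members in clusters 0 to 4, with backgrounds of 8.44%, 7.67%, 5.85%, 4.2% and 5.34%. Both AML libraries were above all PBS libraries for 2, 3, 1, 3 and 3 members (20.5%, 12.1%, 13.7%, 12.5% and 10.1% of all genes) and below for 1, 2, 3, 1 and 3 members (8.8%, 14.4%, 8.99%, 8.85% and 8.71%). Ifitm1 came nearest on the lower side, in cluster 2, at 401, 591 and 458 CPM in PBS and 212 and 260 CPM in AML (-1.11 ± 0.31, edgeR adjusted p = 0.17).

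**Figure D4:**
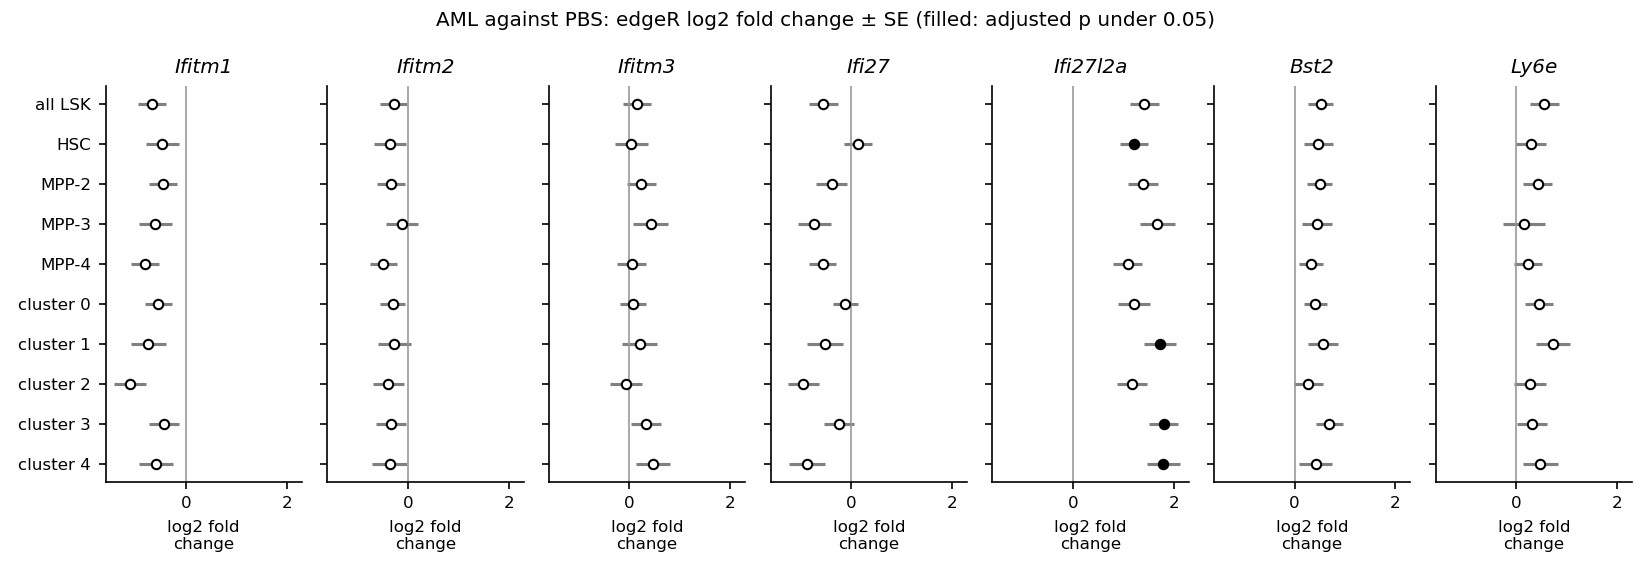
Fitted log2 fold change of AML against PBS with its SE (edgeR) for each member over all LSK cells, in the 4 classes and in clusters 0 to 4, filled where the adjusted p is under 0.05. Ifi27l2a lies between 1.09 and 1.80 in every row and is the only member with filled points, Ifitm1 is negative in every row, and Bst2 and Ly6e are positive in every row.

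Other genes of the interferon pathway were followed as fixed lists for comparison. Of all genes tested, edgeR called 0.153% higher and 0.00696% lower over all LSK cells, and 0.131% and 0.0469% in the HSC class. Of 14 genes for interferon receptors, kinases and factors, 1 passed in the HSC class, Irf7, a factor that amplifies the type I response (74.0 ± 17.3 CPM in PBS and a mean of 154 CPM in AML, 1.22 ± 0.26, edgeR adjusted p = 0.0027, with AML and PBS libraries overlapping in CPM), and none over all LSK cells. Of 38 other interferon-stimulated genes tested over all LSK cells, none passed, the median difference was 0.33 against -0.03 for all genes, and in 16 both AML libraries were above all PBS libraries, as in 16% of all genes. In the HSC class, 7 of 36 rose and none fell, with a median of 0.72 against -0.03. Among these were Ifit3, of a family that restrains viral translation (9.07 ± 1.33 CPM in PBS, mean 47.5 CPM in AML, 2.24 ± 0.33, edgeR adjusted p = 3.7e-08), Oas2, which senses double-stranded RNA (means of 6.04 and 36.6 CPM, 1.95 ± 0.41, 0.0027), and Rnf213 (41.5 and 120 CPM, 1.25 ± 0.27, 0.0028). Of the interferon gamma and antigen presentation genes, 2 of 30 rose in the HSC class and none fell, the chemokine Cxcl10 (3.28 and 24.4 CPM, 2.95 ± 0.42, edgeR adjusted p = 4.5e-09) and Iigp1 (60.7 and 156 CPM, 1.17 ± 0.27, 0.010), and none of 32 passed over all LSK cells. DESeq2 called no gene at all in the HSC class. Of 13 genes related to the members, 7 were tested over all LSK cells and 1 rose, Ly6c2, which marks myeloid cells (5.47 and 17.0 CPM, 1.69 ± 0.27, edgeR adjusted p = 0.018), while Ly6a, the gene of the sorting antigen, differed by 0.23 ± 0.33 (0.81). The median of the members themselves was 0.15 over all LSK cells and 0.13 in the HSC class.

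Across the 20 sums of 5 libraries and 4 classes, levels of the members were compared in pairs, given here as a description since sums of a library share its depth and its mouse or mice. Pearson's r of log2(CPM + 1) was 0.70 between Ifitm1 and Ifitm2, 0.61 between Ifitm1 and Ifitm3, 0.79 between Ifi27l2a and Bst2 and 0.62 between Ifi27l2a and Ly6e. It was -0.59 between Ifitm1 and Ifi27l2a, -0.57 between Ifitm2 and Ifi27l2a and -0.23 between the neighbours Ifi27 and Ifi27l2a. Ifitm3 did not follow the other Ifitm genes in this, at 0.016 with Ifi27l2a and 0.33 with Bst2, and Ifi27 was at 0.46, 0.36 and 0.23 with Ifitm1, Ifitm2 and Ifitm3. Among 5758 genes with a mean of at least 20 CPM, the genes most like Ifitm1 were Lst1 (r = 0.92) and Hacd4 (0.91), those most like Ifitm2 were Gstm5 (0.90) and Cltb (0.85), and those most like Ifitm3 were Tmem164 and Epb41 (both 0.90). Ifi27 was closest to Ptprcap (0.90) and Ngrn (0.87), Ifi27l2a to Tmsb10 (0.82) and Bst2, Bst2 to Mgat5 and Map3k1 (both 0.84), and Ly6e to Calr (0.76) and Rpn2 (0.73), both of which encode proteins of the endoplasmic reticulum.

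**Figure D5:**
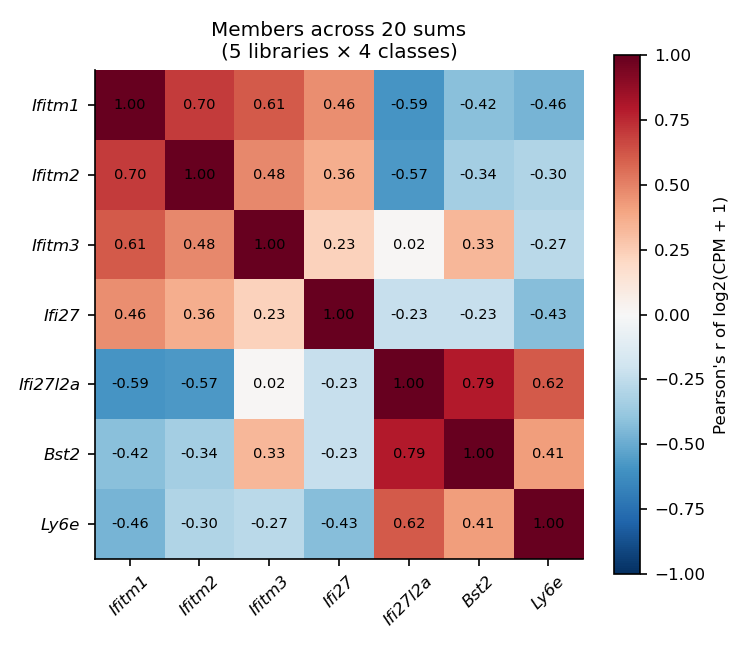
Pearson's r of log2(CPM + 1) between the members over 20 sums (5 libraries by 4 classes), red for positive and blue for negative. Pairs among the Ifitm genes are positive, as are those among Ifi27l2a, Bst2 and Ly6e. Ifitm1 and Ifi27l2a stand at -0.59, whereas Ifitm3 stands at 0.016 with Ifi27l2a and 0.33 with Bst2.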

How the data were processed

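The deposited files hold raw UMI counts per gene and barcode for 6 libraries (10x Chromium V3), which the authors made with Cell Ranger 7.0.1 on mm10 (GRCm38) per the submitters' processing notes, and a cell table of 5 libraries with the class, cluster and phase that the authors assigned in Seurat 4.3.0 under R 4.2.2. Its mitochondrial percent column was deposited as a percent of UMIs, and 18 other columns were not used. The sources used here do not say whether intronic reads were counted. The authors' filters kept 16822 cells.

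UMI counts were summed per library, class or cluster (at least 20 cells) and tested in edgeR 4.0.16 (filterByExpr, TMM, glmQLFit and glmQLFTest, Benjamini-Hochberg over all genes tested, threshold 0.05), under R 4.3.3. The SE is the size of the log2 fold change divided by the square root of its F. DESeq2 1.42.0, limma 3.58.1, other scalings and filters, leaving out each library, a replicate block, thinning to 2000 UMIs per cell and the authors' barcodes under a separate filter (at least 1000 genes and at most 10% mitochondrial UMIs) were alternatives. Doublets were not called anew. The tests were checked on simulated counts. Members and gene lists were chosen with earlier results of these data known. The text names all 7 members, up to 3 genes per list with the lowest p over all LSK cells or in the HSC class, and the 2 genes most like each member. It also names markers called in the MPP classes and the clusters, chosen after their values were seen. Gene positions are from GENCODE M21 and promoters from RefSeq on GRCm38.p6. 2 interferon-stimulated genes of the list of 40 were not analysed here. UMI intervals cover counting error only.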

Additional observations from a re-analysis of the deposited data

Results flagged for a closer look

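AML replicate 2 has no cells in the cell table and entered none of the main tests. It entered the separate barcode filter on 6 libraries, and its Ifitm1 level under that filter is given above. Of its 17055 barcodes, 106 hold at least 1000 genes with at most 10% mitochondrial UMIs. In these, 4 members stood above the highest PBS library under the same filter by more than their counting error (95% exact Poisson interval, which covers counting error only). Ifi27l2a was at 206 CPM (158 to 263) against at most 80.3 CPM in PBS, Bst2 at 386 CPM (319 to 462) against 241 CPM, Ly6e at 1072 CPM (959 to 1194) against 566 CPM, and Ifitm3 at 1464 CPM (1331 to 1606) against 1214 CPM. For Ifi27l2a and Bst2 the other AML libraries stood at 189 to 193 and 301 to 350 CPM under this filter, for Ly6e at 577 to 678 CPM, and for Ifitm3 at 1146 to 1498 CPM, where the PBS libraries stood at 1146 to 1214 CPM. The other 3 members were not above PBS. Ifitm1 was at 618 CPM (533 to 712), within the PBS range of 605 to 777 CPM and above the other AML libraries (415 to 509 CPM), Ifitm2 at 536 CPM (457 to 624) against 653 to 802 CPM in PBS, and Ifi27 at 140 CPM (102 to 189) against 147 to 208 CPM. Over all barcodes of this library, most of which hold few UMIs, Ly6e was at 1918 CPM, Ifi27l2a at 111 CPM and Bst2 at 218 CPM, and Ifitm3 was at 874 CPM, below all PBS libraries (1150 to 1215 CPM). The origin of these barcodes was not tested.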

How the results depend on the processing

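Leaving out an AML library leaves 1, whose spread is taken to be that of the PBS group, and AML replicate 1 has 23 HSC-class cells. Depth limits Ifi27l2a (8 to 195 UMIs per library in the HSC class), and AML replicate 1 also holds 8 UMIs of Ifi27 there. Of the alternatives chosen after seeing the data, G1 cells alone and the separate barcode filter without AML replicate 2 changed no call over all LSK cells, and leaving cluster 6 out of MPP-3 took the members called there in AML against PBS from 0 to 1 and the calls between PBS classes from 18 to 19. Members called went from 0 to 1 over all LSK cells under DESeq2, no filter, the replicate block and the separate filter on 6 libraries, from 1 to 0 in the HSC class under DESeq2 and the replicate block, from 0 to 1 in MPP-2 and MPP-3 under DESeq2, library size scaling, no filter and the block, and from 0 to 1 in MPP-4 under no filter and the block. In each of these the member was Ifi27l2a. Leaving out each library gave 0 to 1 across classes, over all LSK cells, and in each of HSC and MPP-3, and 1 to 3 calls by cluster. Without AML replicate 3 one of these was Ifi27, lower in cluster 4 (-2.22, edgeR adjusted p = 0.045), beside Ifi27l2a in clusters 1 and 4. With no filter Ifi27l2a was called in all 5 clusters. Between classes of PBS libraries, 18 became 11 among G1 cells and 5 with no replicate block. Why these calls moved was not tested.

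Whether the replicate numbers pair the samples is not known. Deviations from the group means of PBS and AML libraries correlated at -0.10 for number 1 and -0.13 for number 3 over 14364 genes. With 2 AML libraries, their deviations are mirror images of each other, so that these values cannot decide it. With the replicate block, Ifi27l2a differed by 1.64 over all LSK cells (edgeR adjusted p = 0.0019) and by 1.26 in the HSC class (0.52).

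The following signs turned, on the log2 scale. With library size scaling these were Ifitm2 in AML against PBS MPP-3 (0.078), and in PBS Ifitm2 in MPP-2 (-0.13) and Ifi27 in MPP-3 (-0.11). Without cluster 6, Ifitm2 in MPP-3 of PBS was 0.072. Leaving out each library gave a range from -0.0019 to 0.30 for Ifitm3 over all LSK cells, -0.44 to 0.33 for Ifitm3 and -0.51 to 0.28 for Ifi27 in the HSC class, -0.14 to 0.78 for Ly6e in MPP-3, -0.26 to 0.27 for Ifitm3 in MPP-4, and -0.069 to 0.033 for Ifitm2 between MPP-3 and HSC in PBS. By cluster it gave -0.12 to 0.26 for Ifitm3 and -0.46 to 0.13 for Ifi27 in cluster 0, -0.45 to 0.20 for Ifitm3 and -0.079 to 0.49 for Bst2 in cluster 2, and -1.003 to 0.019 for Ifi27 in cluster 3. Of the 371 values of members over all LSK cells and by class, 339 kept their direction and side of the threshold, of 210 by cluster 193, and of 189 between PBS classes 150.

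Over all genes, 23 calls over all LSK cells became 72 under DESeq2, 392 with no filter, 91 with the block, 75 with the separate filter, 12 after thinning, 6 with equal class shares and 2 to 419 without 1 library. The 19 calls in the HSC class became 0, 29 and 9 under DESeq2, no filter and the block, and 29 with library size scaling. The 111 calls across classes became 506 with no filter, 1 under limma and 29 to 189 without 1 library.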
